A study of Saccharomyces cerevisiae with 6 samples.

Results

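The genes described here are the meiosis and sporulation genes of budding yeast that carry the names SPO, SPS, SPR, DIT or IME with a number, together with NDT80. SPS19, a peroxisomal fatty acid enzyme in spite of its name, was not counted among them. The names matched 33 of the 7126 genes of the deposited table, on 15 chromosomes, and all 33 had enough reads to be among the 6330 genes tested. RNA came from BY4741, a MATa haploid laboratory strain of the S288c background labelled as wild type, in overnight cultures of SC, a defined medium, with glycerol as the carbon source in 3 libraries and glucose in 3 libraries. Glycerol has to be respired, whereas glucose is fermented. All the cultures are of a single strain, and the libraries of a medium are described as biological replicates. The poly(A) libraries carry no strand information.

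Sporulation is the response of a diploid cell to nitrogen starvation on a carbon source that cannot be fermented, and a MATa haploid such as BY4741 does not normally enter it. Ime1 and the kinase Ime2 switch on early genes for recombination and chromosome pairing, many of which are held down in growing cells by Ume6 bound to an upstream sequence named URS1. The transcription factor Ndt80 then switches on middle genes through the middle sporulation element (MSE), which the repressor Sum1 occupies in growing cells, and the products of middle and late genes build the prospore membrane, which encloses each nucleus, and the spore wall around it.

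Both elements were searched for in the 500 bases before the start codon, on both strands, in the RefSeq R64 genome, as the letters GNCACAAA for the MSE and GGCGGC for the core of URS1. Neither motif contains the other, and the pair of MSE matches of SPO23, on opposite strands, overlap in part. The MSE letters were found before 15 of the 33 genes (45.5%) and before 416 of 5979 genes in all (6.96%), and the URS1 letters before 8 of the 33 (24.2%) and before 571 of 5979 (9.55%). The windows below show the motif in capitals for genes whose levels are described further on, each read 5′ to 3′ on the strand of the gene. The first 6 windows hold MSE matches, from NDT80 itself, from 4 genes with higher RNA in glycerol and from SPO77, the gene with an MSE whose RNA was lower there.
NDT80 (chrVIII:356329-356358, plus strand): ccaggccgtatGACACAAAagagtagaaaa
SPS1 (chrIV:1487391-1487420, minus strand): aaaacgaaaaaGACACAAAttccatttttt
SPR28 (chrIV:905131-905160, minus strand): tgcgtctacatTTTGTGTCattcccataag
SPS22 (chrIII:42053-42082, plus strand): agctatatcctTTTGTGACatacaatagag
SPS4 (chrXV:903048-903077, minus strand): gattgacgcgcGCCACAAAaacgtatcatt
SPO77 (chrXII:807222-807251, plus strand): atataagaaatGTCACAAAatcaaaaatag
The remaining 5 windows hold the URS1 core, from the 2 regulators that have it and from SPO22, SPO13 and SPO16, whose products act on meiotic chromosomes.
IME2 (chrX:220923-220952, plus strand): gcgcgagacttcGGCGGCaaaaagccacag
IME4 (chrVII:142002-142031, plus strand): tatgcgtctttaGGCGGCttttggcgtaca
SPO22 (chrIX:226061-226090, minus strand): aatacaaacttcGGCGGCtaattgcaaata
SPO13 (chrVIII:131940-131969, plus strand): tattgagaaataGCCGCCgacaaaaaggaa
SPO16 (chrVIII:402753-402782, minus strand): gcgtgaaaagtgGGCGGCtaaaaccgagaa
A match of these letters is a description of the sequence and does not show that a factor binds there.

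The libraries held between 16325044 and 20038052 counts in glycerol and between 15289163 and 17318484 in glucose. Levels are given as normalized CPM, CPM being read counts scaled by the library total and by a TMM factor, which corrects for a few very abundant genes and lay between 1.18 and 1.197 in glycerol and between 0.829 and 0.865 in glucose. In the fit across all genes 2637 were higher in glycerol (41.7%) and 2539 lower (40.1%), at an adjusted p under 0.05 from the quasi-likelihood test of edgeR, adjusted by the Benjamini-Hochberg method. The split depended on the TMM factor: with library totals alone 3605 genes were higher and 1652 lower, and the median over all tested genes moved to a log2 fold change of 0.52, against 0.03. Haploid-specific genes were present in both media at a summed level of 785 ± 19.6 CPM in glycerol and 793 ± 21.4 CPM in glucose (SD, n = 3 each). The like sums hide opposite changes: of these 8 genes 2 were higher in glycerol, 3 were lower and 3 did not pass the test. RME1 had 219.7 CPM in glycerol and 80.3 CPM in glucose, and STE4 had 73.5 CPM in glycerol and 198.9 CPM in glucose. The a-specific genes of a MATa cell were also present, at a summed level of 296 ± 2.0 CPM in glycerol and 2440 ± 260 CPM in glucose. Of these 7 genes 5 were lower in glycerol, ASG7 was higher and AGA2 did not pass the test. STE2, the largest part of the glucose sum, had 51.5 CPM in glycerol and 1176 CPM in glucose. MATALPHA1, the alpha activator gene that a MATa cell does not express, had 0 counts in all 6 libraries. Whether reads of MATALPHA1 could have been counted was not tested, so this 0 does not by itself identify a MATa cell. Of the 6 alpha-specific genes 5 had enough reads to be tested, among them SAG1 with 70.9 CPM in glycerol and 28.7 CPM in glucose.

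Most of the sporulation genes had more RNA in glycerol. Of the 33 genes, 25 were higher in glycerol (75.8%, against 41.7% of all tested genes), 6 were lower (18.2%, against 40.1%), and SPO19 and SPR6 did not pass the test. The median log2 fold change of the 33 genes was 1.02, a 2.03-fold difference, beside 0.03 over all tested genes, and the values ran from −1.53 for SPO11 to 6.77 for SPS100. The SD of their log2 fold changes was 1.56, close to the 1.62 of all tested genes, while the median standard error of a single gene was 0.15. Libraries of the 2 media did not overlap for any of the 33 genes: the glycerol libraries lay apart upwards in 26 (43.0% of all tested genes did so) and downwards in 7 (40.8% of all). A rise of 2-fold or more was called in 17 of the 33 genes (24.5% of all tested genes), a rise of 4-fold or more in 8 (10.6%), and a fall of 2-fold or more in 3, SPO11, SPO77 and SPO16 (21.4%). With library totals alone 28 of the 33 genes were higher and 3 lower, and their median was 1.52. Of all 6330 tested genes 3605 were then higher and 1652 lower. A change of scaling moves all genes by nearly the same amount. The distance from the median of all genes therefore stayed the same by construction, 0.995 without and 0.996 with the TMM factor. The RNA is from whole cultures, so a strong signal from few cells and a weak signal from all of them cannot be told apart.

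**Figure D1:**
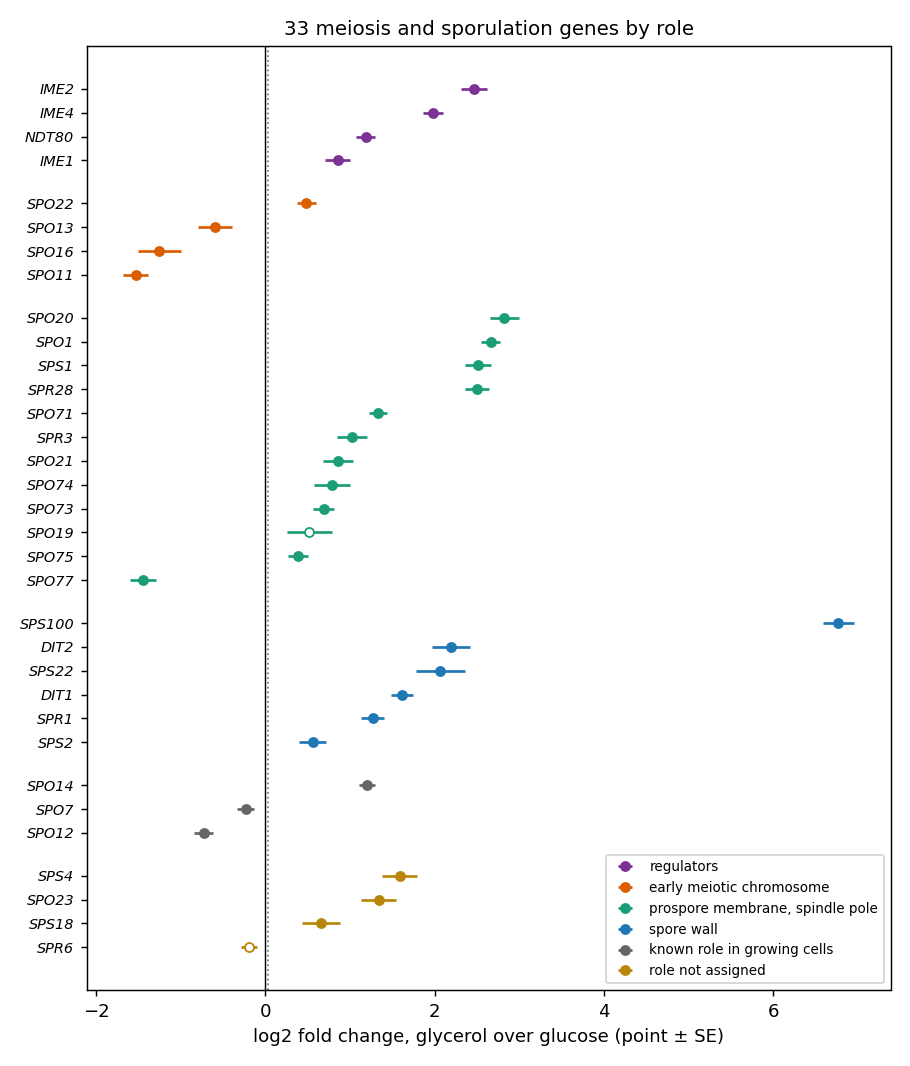
The log2 fold change of each of the 33 genes, glycerol over glucose, with its standard error, grouped and coloured by role; open circles are the 2 genes that did not pass the test, the solid line is 0 and the dotted line the median of all tested genes. The points run from −1.53 (SPO11) to 6.77 (SPS100), and 3 of the 4 early chromosome genes lie left of 0.

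All 4 regulators of the programme were higher in glycerol, as were 41.7% of all tested genes, and their median log2 fold change was 1.58. IME1, the transcriptional activator at the entry to meiosis, had 21.8, 23.2 and 21.5 CPM in the glycerol libraries, against 10.9, 10.9 and 15.1 CPM in the glucose libraries. The highest glucose library stayed below the lowest glycerol library, and the log2 fold change was 0.85 ± 0.14 (SE, adjusted p = 5.78e-05). IME2, the kinase that acts after Ime1, had 72.4, 84.0 and 98.8 CPM in glycerol, against 12.3, 15.04 and 18.8 CPM in glucose. The groups were widely separated, with a 5.53-fold difference (log2 fold change 2.47 ± 0.15, adjusted p = 7.56e-10). IME4, the mRNA N6-adenosine methyltransferase of meiotic cells, was per length the most abundant of the 4, and had 177, 179 and 205 CPM in glycerol, against 47.5, 41.7 and 52.9 CPM in glucose. Its log2 fold change was 1.98 ± 0.12 (adjusted p = 3.88e-10). In haploid cells a transcript is known to run antisense over IME4, and reads without strand cannot be divided between the 2 transcripts, so this value is for the locus. The neighbour of IME4 to the left, YGL193C, which starts 18 bases away on the other strand, had a log2 fold change of 2.17. NDT80, the activator of the middle genes, had 47.1, 48.4 and 41.3 CPM in glycerol, against 20.1, 20.1 and 19.97 CPM in glucose. The glucose libraries hardly differed from each other, and the log2 fold change was 1.18 ± 0.11 (adjusted p = 8.36e-08).

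The 6 spore wall genes were all higher in glycerol, as were 41.7% of all tested genes, and their median log2 fold change was 1.84. SPS100, whose product takes part in the late maturation of the spore wall, stood apart from every other gene of the group. It had 5823, 4626 and 7946 counts in the glycerol libraries, against 28, 35 and 41 counts in the glucose libraries, which is 261, 240.2 and 334 CPM in glycerol and 2.12, 2.44 and 3.10 CPM in glucose. Its lowest glycerol library was far above its highest glucose library, the log2 fold change was 6.77 ± 0.18 (adjusted p = 1.32e-13, 109-fold), and 22 of the 6330 tested genes rose more. SPS100 made up 20.3% of the summed CPM of the 33 genes in glycerol and 0.446% in glucose. The sum over the 33 genes was 1370 ± 83.9 CPM in glycerol and 573 ± 17.6 CPM in glucose (SD, n = 3 each), a ratio of 2.39, and without SPS100 it was 1090 ± 32.1 CPM in glycerol and 570 ± 17.9 CPM in glucose, a ratio of 1.91.

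DIT1 and DIT2 make the dityrosine of the outer spore wall and are transcribed away from each other from start codons 898 bases apart. DIT1 had 38.6, 38.8 and 40.7 CPM in glycerol, against 13.6, 14.3 and 10.5 CPM in glucose (log2 fold change 1.62 ± 0.13, adjusted p = 1.36e-08). DIT2, a cytochrome P450, had 10.8, 9.66 and 9.63 CPM in glycerol, against 2.73, 2.37 and 1.44 CPM in glucose (4.59-fold, adjusted p = 2.38e-07). In both genes the 2 groups of libraries were well apart. YDR401W covers 553 bases of DIT2 (37.6% of its length) on the other strand, but had next to no reads (0.0449 CPM in glycerol and 0.0504 CPM in glucose). SPS22, which with its paralogue SPS2 helps to order the glucan layer of the wall, had 8.70, 9.87 and 11.7 CPM in glycerol, against 1.21, 3.90 and 2.04 CPM in glucose. The second glucose library was the highest of its group and still below all glycerol libraries, and the log2 fold change was 2.06 ± 0.29 (adjusted p = 8.36e-06). Without that library it was 2.63. The gene just upstream of SPS22 on the same strand, YCL048W-A, ends 437 bases before it and had 189 CPM in glycerol and 1.39 CPM in glucose, and the part of its reads in those of SPS22 was not tested. SPR1, a sporulation-specific glucanase, and SPS2 had smaller rises, with log2 fold changes of 1.27 and 0.56.

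**Figure D2:**
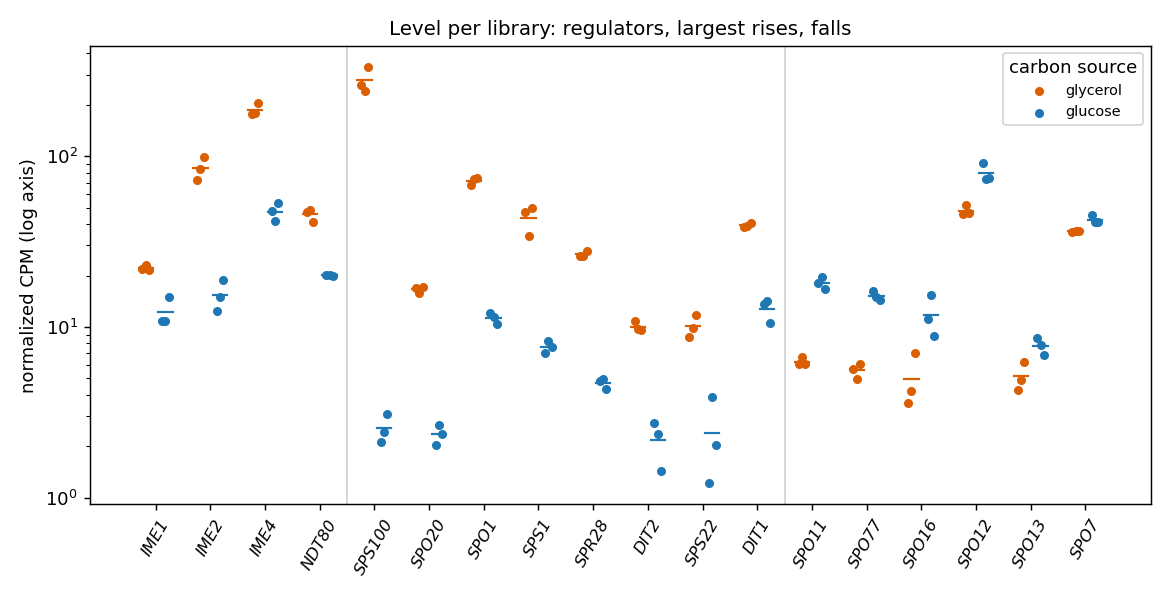
Normalized CPM on a log axis for 18 genes in the 3 glycerol libraries (left of each pair) and the 3 glucose libraries (right), with a bar at each mean: the 4 regulators, then further genes among the 10 largest rises, then the 6 falls, separated by vertical lines. No gene has overlapping groups; SPS100 is the widest pair, with 240.2 to 334 CPM in glycerol and 2.12 to 3.10 CPM in glucose.

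Of the 12 genes for the prospore membrane and the meiotic spindle pole, 10 were higher in glycerol (83.3%, against 41.7% of all tested genes), SPO77 was lower and SPO19 did not pass the test. SPO20, a SNARE protein for the fusion of vesicles with the prospore membrane, had 16.9, 15.8 and 17.2 CPM in glycerol, against 2.04, 2.65 and 2.34 CPM in glucose. This was the second largest rise of the 33 genes, with a log2 fold change of 2.82 ± 0.17 (adjusted p = 7e-10). SPO1, a phospholipase-like protein of meiotic cells, had 67.4, 73.3 and 74.2 CPM in glycerol, against 12.1, 11.5 and 10.4 CPM in glucose (2.66 ± 0.11, adjusted p = 1.55e-11). SPS1, a kinase needed for the closure of the prospore membrane, had 47.0, 34.2 and 49.6 CPM in glycerol, against 7.04, 8.29 and 7.64 CPM in glucose (2.51 ± 0.16, adjusted p = 8.6e-10). The second glycerol library was the low point for SPS1, but still well above every glucose library.

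SPR28 and SPR3 are both septins made in sporulation, filament proteins that line the growing prospore membrane. SPR28 had 26.0, 25.9 and 27.9 CPM in glycerol, against 4.85, 4.94 and 4.31 CPM in glucose (log2 fold change 2.50 ± 0.14, adjusted p = 2.35e-10). SPR3 had 10.4 ± 1.24 CPM in glycerol and 5.11 ± 0.305 CPM in glucose (SD, n = 3 each), with a fold change of 2.03. SPS1 and SPS2 lie head to tail 262 bases apart and had log2 fold changes of 2.51 and 0.56. The other 5 genes of this role that rose were SPO71 and SPO73, which act in prospore membrane growth, SPO21 and SPO74, parts of the meiotic outer plaque of the spindle pole body, and SPO75, with log2 fold changes from 0.39 (SPO75) to 1.33 (SPO71). SPO19, a membrane-anchored protein that can substitute in part for a defective Spo20, had 2.51, 3.06 and 3.36 CPM in glycerol, against 2.04, 2.44 and 1.74 CPM in glucose. Its groups came close without overlapping, and it missed the threshold (log2 fold change 0.52 ± 0.27, adjusted p = 0.087). SPO77, which acts with Sps1 in closing the prospore membrane, went the other way, with 5.65, 4.99 and 6.10 CPM in glycerol, against 16.3, 14.97 and 14.4 CPM in glucose. All its glycerol libraries lay below all its glucose libraries, at a log2 fold change of −1.44 ± 0.15 (adjusted p = 3.41e-07).

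Of the early genes of the meiotic chromosomes 3 of 4 were lower in glycerol, beside 40.1% of all tested genes. With library totals alone 2 of 4 were lower, beside 1652 of all 6330 tested genes. SPO11, which makes the DNA breaks that start meiotic recombination, had 6.05, 6.65 and 6.10 CPM in glycerol, against 18.1, 19.7 and 16.6 CPM in glucose. It had the largest fall of the 33 genes, with a log2 fold change of −1.53 ± 0.14 (adjusted p = 8.42e-08). SPO16, a partner of Zip2 in crossover formation and synapsis, had 3.59, 4.21 and 7.02 CPM in glycerol, against 11.1, 15.5 and 8.85 CPM in glucose. The third glycerol and the third glucose library came close to each other, but the groups did not overlap (−1.25 ± 0.25, adjusted p = 0.000295). SPO13, which keeps sister chromatids together through the meiosis I division, had 4.26, 4.88 and 6.22 CPM in glycerol, against 8.63, 7.80 and 6.88 CPM in glucose (−0.60 ± 0.20, adjusted p = 0.0116). The call for SPO13 was lost without the first glycerol library (−0.45, adjusted p = 0.0693), without the second (−0.54, adjusted p = 0.0507) and with library totals alone (−0.10, adjusted p = 0.648), whereas SPO11 and SPO16 stayed lower in each of these. SPO22, also known as ZIP4 and like SPO16 a crossover factor, was higher, at 34.7 ± 0.49 CPM in glycerol and 24.8 ± 2.55 CPM in glucose (SD, n = 3 each), a 1.40-fold difference.

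Some of the genes have known work in growing cells. SPO12, a regulator of the exit from mitosis, had 45.6, 51.9 and 46.5 CPM in glycerol, against 90.9, 73.5 and 74.2 CPM in glucose (log2 fold change −0.73 ± 0.11, adjusted p = 1.92e-05). With library totals alone it was −0.23 and no longer passed the test (adjusted p = 0.0609). SPO12 and SPO16 converge with 130 bases between them, both were lower in glycerol, and without strand information reads that run past an end cannot be assigned. SPO7, a subunit of the phosphatase that activates the lipin Pah1, had 35.7, 36.4 and 36.6 CPM in glycerol, against 45.0, 41.3 and 41.1 CPM in glucose. Its difference was small and just past the threshold (−0.23 ± 0.10, adjusted p = 0.0452). The call for SPO7 was lost without any 1 of the glycerol libraries or of the first 2 glucose libraries (adjusted p between 0.0753 and 0.144). It was also lost with the Wald test of DESeq2 (adjusted p = 0.0544) and in edgeR with a filter at a mean of 100 counts (adjusted p = 0.114). The direction of SPO7 turned with library totals alone (0.27). SPO14, phospholipase D, which is present in growing cells and needed in sporulation, had 127 ± 6.41 CPM in glycerol and 55.4 ± 2.28 CPM in glucose (SD, n = 3 each) and was 2.30-fold higher in glycerol.

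The last 4 genes, SPS4, SPS18, SPO23 and SPR6, are given no role here. SPS4, SPO23 and SPS18 were higher in glycerol, with log2 fold changes of 1.59, 1.34 and 0.66. SPS18 shares 203 of its bases (22.5% of its length) with YNL205C, which had 0.399 CPM in glycerol and 0.162 CPM in glucose. SPR6 had 57.0, 56.5 and 55.2 CPM in glycerol, against 66.7, 62.3 and 63.2 CPM in glucose. The groups did not overlap, yet the difference did not pass the test (−0.19 ± 0.09, adjusted p = 0.0756), and it turned to 0.31 with library totals alone.

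Per length, these are mostly scarce RNAs in either medium. Their median level was 14.0 CPM per kilobase in glycerol and 7.12 in glucose, beside medians over all tested genes of 43.1 in glycerol and 38.8 in glucose. In glycerol 26 of the 33 genes, and in glucose 29, lay below the median level of all tested genes. In each medium 14 of the 33 lay in the lowest 10%, but these were not all the same genes. SPO11, for example, was among them in glycerol alone and SPS100 in glucose alone. Over all libraries and genes of the group the lowest count was 16. SPS100 was the highest of the group in glycerol, at 284 CPM per kilobase, a level that 89.9% of tested genes did not reach, and was among the lowest in glucose, at 2.60 CPM per kilobase (percentile 5.5). In glucose the most abundant were SPO12 with 152 CPM per kilobase and SPR6 with 111, which in glycerol had 91.9 and 97.6 CPM per kilobase. IME4 was at 104 CPM per kilobase in glycerol and 26.3 in glucose, and IME2 at 43.9 in glycerol and 7.94 in glucose. SPO77, SPO19 and SPO11 were the lowest 3 in glycerol, at 3.89, 4.43 and 5.24 CPM per kilobase.

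**Figure D3:**
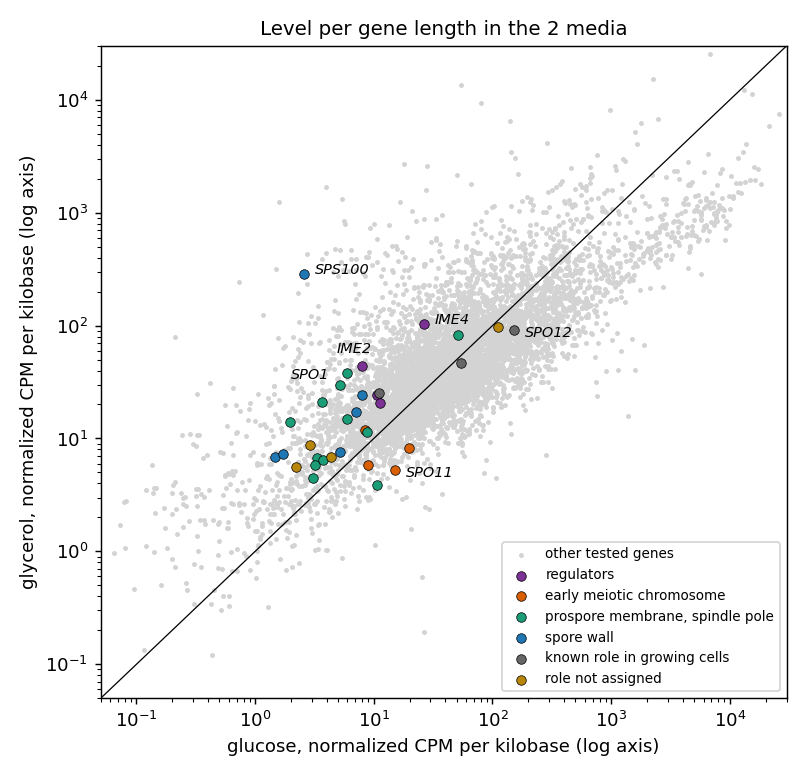
Mean normalized CPM per kilobase of gene length in glycerol (vertical log axis) against glucose (horizontal log axis) for the 33 genes, coloured by role, and for the other tested genes in grey, with a line of equal level. Most coloured points lie low and above the line; SPS100 is at 284 CPM per kilobase in glycerol and 2.60 in glucose, and SPO11 and SPO12 lie below the line.

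Genes with and without the motifs shown above moved in both directions. Among the 15 genes with an MSE, 13 were higher in glycerol, SPO77 was lower and SPO19 did not pass the test, with a median log2 fold change of 1.02. Among the 18 genes without an MSE, 12 were higher, 5 were lower and 1 did not pass, with a median of 1.06. Over all tested genes with these letters 192 of 402 were higher in glycerol and 145 lower, with a median of 0.19. Of the 8 genes with the URS1 core, 6 were higher and SPO13 and SPO16 lower, with a median of 1.27, and over all tested genes with the core 296 of 558 were higher and 169 lower, with a median of 0.45. SPO14, SPO23 and SPS22 had both motifs, and all of them were higher in glycerol. The 13 genes with neither motif included SPS100, SPO20 and SPO1, the 3 largest rises, and SPO11, the largest fall, and had a median of 1.27. These letters are not in the 500-base windows of those genes, which says nothing of other sites or longer distances.

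**Figure D4:**
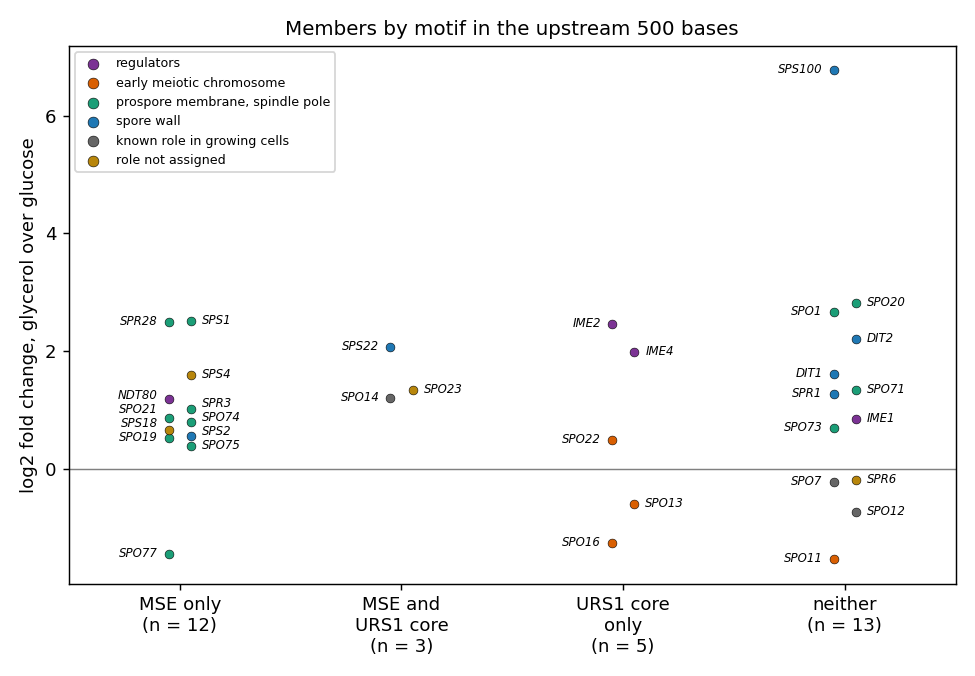
The log2 fold change, glycerol over glucose, of each of the 33 genes by the motif letters found in the 500 bases before its start codon, coloured by role. Genes on both sides of 0 stand in every class except the 3 genes with both motifs, and SPS100 (6.77) and SPO11 (−1.53) stand among the 13 with neither.

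Other genes of the programme, from lists drawn up by stage, are set beside the 33 genes by their counts. The lists were chosen with earlier results of these data known, so their shares are a description and not independent support. Among 22 middle sporulation genes outside the named families 17 were higher in glycerol (77.3%, against 41.7% of all tested genes), 1 was lower and 4 did not pass the test, and the median log2 fold change was 1.74. The largest changes were in CSM4, which acts in the movement of meiotic chromosome ends (3.82), and in OSW1 and OSW2, of the outer spore wall (3.77 and 3.41), though OSW1 had just 3, 2 and 3 counts in the glucose libraries, against 89, 38 and 55 in the glycerol libraries. Of 8 late spore wall genes 6 were higher (75%) and 2 did not pass, with a median of 1.47 and the largest rises in LDS2 (3.86), LDS1 (3.05) and MUM3 (2.03). LDS1 too had few counts in the glucose libraries, 7, 5 and 10, against 78, 106 and 110 in the glycerol libraries. Of 27 early genes of recombination and synapsis 15 were higher (55.6%), 2 were lower and 10 did not pass, with a median of 0.63. MND1, a recombination protein, and MER1, a meiotic splicing factor, had log2 fold changes of 2.73 and 2.26, while ECM11, of the synaptonemal complex, had −2.65. ECM11 had just 17, 18 and 16 counts in the glycerol libraries, against 64, 80 and 58 in the glucose libraries. With library totals alone 21 of the early genes were higher and 1 lower, and 20 of the middle genes were higher and 0 lower. Under that scaling 3605 of all 6330 tested genes were higher and 1652 lower, so the background had shifted as well. More of the listed early genes were higher than lower, whereas SPO11, SPO13 and SPO16 were lower, but the lists differ in size and no test compared them.

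Of 24 genes that control the entry into meiosis 11 were higher in glycerol (45.8%, near the 41.7% of all tested genes), 7 were lower (29.2%, against 40.1%) and 6 did not pass, with a median log2 fold change of 0.23. With library totals alone 17 were higher and 1 was lower, where 3605 of all 6330 tested genes were higher and 1652 lower. RME1, which encodes the haploid repressor of IME1, was among those that rose. It had 212, 226 and 220.5 CPM in the glycerol libraries, against 70.9, 82.9 and 87.0 CPM in the glucose libraries, so RME1 and IME1 were both higher in glycerol (log2 fold change of RME1 1.45, adjusted p = 5.23e-09). The kinase gene RIM15 and the stress factor gene MSN2, which carry nutrient signals, had log2 fold changes of 1.38 and 1.35. The 7 lower genes included RFM1, with the largest fall of this list (−0.91), and MSN4 (−0.34). Of the alpha-specific genes, which a MATa cell keeps low, SAG1 had 70.9 CPM in glycerol and 28.7 CPM in glucose, STE3 14.4 CPM in glycerol and 7.48 CPM in glucose, and MATALPHA2 0.815 CPM in glycerol and 0.948 CPM in glucose. Their summed level was 106 ± 7.77 CPM in glycerol and 48.4 ± 6.25 CPM in glucose (SD, n = 3 each), and its part in the results for the sporulation genes was not tested.

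**Figure D5:**
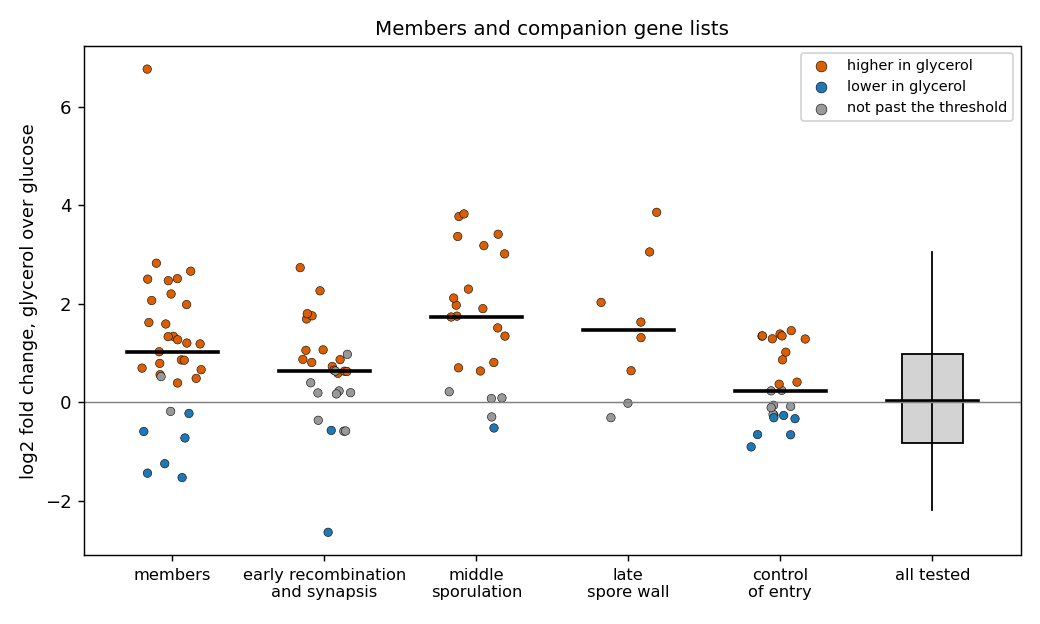
The log2 fold change, glycerol over glucose, of the 33 genes and of the 4 lists of other genes of the programme, 1 point a gene, orange where higher in glycerol, blue where lower and grey where the test was not passed, with the median as a bar. The box at the right spans percentiles 25 to 75 of all tested genes and its line percentiles 5 to 95; the medians are 1.02 for the 33 genes, 0.63, 1.74, 1.47 and 0.23 for the lists from left to right, and 0.03 for all genes.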

How the data were processed

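RNA from 3 glycerol and 3 glucose cultures was sequenced, with the medium and replicate number of each library given by its label. The authors deposited a single table with the read count of each gene in each library, without normalization. The submitters' processing notes name fastp 0.20.1, HISAT2 2.2.1, featureCounts 2.0.1 and DESeq2 and the build R64. The FPKM values the authors deposited beside the counts were not used, nor were the columns of their own comparison, which hold group means, fold changes and p-values. Gene lengths and positions are those of the table, and all 33 genes lie at the same position in RefSeq R64.

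The members and lists were chosen with earlier results of these data known. Counts were fitted in R 4.3.3 with edgeR 4.0.16 (TMM factors, a minimum of 10 counts in 3 or more libraries, quasi-likelihood test, Benjamini-Hochberg adjustment over the 6330 tested genes, threshold 0.05). The procedure was run on simulated counts in which few genes changed, drawn evenly up and down. That run did not test the scaling where most genes change, as they do here. Alternatives were other scalings, DESeq2 1.42.0, other filters on low counts, a replicate block, each library left out and the 2 overlapping genes left out. Named in full are the 4 regulators and, among called genes with no overlap between the groups, the 10 largest rises and 6 largest falls, and from each list at most 3 genes with the largest change, with RME1 and mating-type genes in any case. SPR6 and SPO19, which did not pass, and RFM1 and MSN4 were named after their values were seen. Of the late spore wall list 8 of 9 genes were in the table, and 4 listed symbols were matched through RefSeq. Replicates of a medium differed by more than counting noise (chi-square per degree of freedom 16.4 to 63.7), so none was counted as a copy. The p-values set the difference between the media against the spread between libraries of a medium, estimated in part from all genes together. With 3 libraries a medium an exact permutation test cannot give a p below 0.1. Plots were made in matplotlib 3.10.9 under Python 3.11.15.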

Additional observations from a re-analysis of the deposited data

How the results depend on the processing

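The calls were set against 13 alternatives. Of 427 values of single genes among the 33, 412 stayed on the same side of the threshold with the same direction, and the 15 others fell on 5 genes (SPO7, SPO12, SPO13, SPO19 and SPR6). With library totals alone 3 of the 33 genes were lower in place of 6, 1652 of all tested genes were lower in place of 2539, the median log2 fold change of the 33 genes was 1.52, and SPO7 (0.27) and SPR6 (0.31) changed direction. This scaling shifted the median of all tested genes to 0.52, by construction. SPO19 passed the test there (1.01, adjusted p = 0.00208). With the filter raised to a mean of 100 counts, which kept fewer of the 33, their median was 1.24. Leaving out each library in turn, the median lay between 0.98 (without glycerol replicate 2) and 1.14 (without glycerol replicate 1), 25 genes were higher each time and between 4 and 6 lower.

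Libraries with the same replicate number correlated in their deviations from the group means at 0.171, 0.059 and 0.197 over the 6330 tested genes. Unlike numbers gave -0.203 to 0.039. Not every like-numbered pair passed 0.1, the mark used here, so the numbers were not taken to pair the libraries. Over the 5667 genes with higher counts all of them passed it (0.25, 0.105 and 0.289, against -0.297 to 0.058 for unlike numbers). In both sets of genes every library correlated best with its own number, a hint from the data and not the design. A replicate block gave 25 genes higher, 6 lower and a median of 1.02, and changed no call among the 33. Low counts limit the scarcest of these genes: 17 of the 33 had under 100 counts in some library.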

Other observations

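The table lists 2 further genes of these families by their systematic name, so the choice by name left them out. YOR214C, which RefSeq names SPR2, had 8.34, 9.09 and 10.6 CPM in the glycerol libraries, against 0.681, 0.835 and 0.832 CPM in the glucose libraries, a log2 fold change of 3.56. YPR036W-A, which RefSeq names SPO24, had 816, 756 and 989 CPM in the glycerol libraries, against 65.5, 73.7 and 37.7 CPM in the glucose libraries, a log2 fold change of 3.85. Both lie above all of the 33 genes but SPS100 in the size of their rise.

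Some genes next to the 33 changed more than these did. YJL107C, 1373 bases from IME2 and transcribed away from it, had 403 CPM in glycerol and 11.3 CPM in glucose, a log2 fold change of 5.15. YCL048W-A, upstream of SPS22, had a log2 fold change of 7.07, larger than that of SPS100. These neighbours were picked out after their values were seen, and reads shared with them were not tested.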
